A study of Homo sapiens with 8 samples.

Results

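The glucocorticoid receptor gene NR3C1 and 7 genes known as its direct targets, FKBP5, PER1, TSC22D3, ZBTB16, DUSP1, KLF9 and SGK1, were followed through a TGFβ1 time course by the open chromatin around them. The peak lists of all conditions were merged wherever peaks shared at least 1 bp, and each merged region that overlapped the annotated body of 1 of these 8 genes, or the 50 kb on either side of it, was kept. This gave 184 of the 126658 merged regions. They were 35 at NR3C1, 24 at FKBP5, 25 at PER1, 22 at TSC22D3, 39 at ZBTB16, 21 at DUSP1, 4 at KLF9 and 14 at SGK1. Accessibility had been measured by ATAC-seq, in which a transposase inserts sequencing adapters into DNA that is free of nucleosomes, in MCF10A, an immortalised, non-tumorigenic line of human mammary epithelial cells that carries no engineered change here. Wild-type cells were given TGFβ1 at 5 ng/ml for 6, 24 or 72 h, or a matching volume of solvent, which was albumin in buffered saline, and each of these 4 conditions had 2 replicates. The labels place the solvent cells at time 0. The culture medium of every condition, solvent included, held hydrocortisone at 0.5 μg/ml, which is itself a ligand of the receptor, together with EGF, insulin, cholera toxin, horse serum and penicillin with streptomycin. No condition was therefore free of receptor ligand, and the data compare TGFβ1 with solvent on a background of constant hydrocortisone.

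The authors called peaks on both replicates of a condition together, so there was 1 list per condition. Differences between conditions therefore could not be set against replicate spread or tested. Each peak carries an AUC, the area of its significance curve above the caller's limit, which grows with read depth and with peak width. The lists held 86209 to 118433 peaks, and the depth behind them is unknown. At regions within 3 kb of a transcription start site (TSS), the AUC was higher than in solvent by a median log2 ratio of 0.44 at 6 h, 0.38 at 24 h and 0.25 at 72 h. These medians were subtracted, and ratios below are scaled log2 ratios to solvent unless said otherwise, whereas AUC values are as deposited. A region called higher or lower passed 1.5-fold on that scale and had a peak in both lists. A gained region had a peak in a TGFβ1 list and none in solvent, and a lost region the reverse. More cells with an open region and wider opening in each cell cannot be told apart in such bulk samples. All 6 markers of basal mammary epithelium examined (KRT5, KRT14, KRT17, TP63, ITGA6 and CDH1) had a peak within 1 kb of a TSS in every list. Among 2 leukocyte and 2 endothelial markers, PTPRC had one in the TGFβ1 lists but not in solvent, PECAM1 had one in every list, and CD3E and CDH5 had none.

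The glucocorticoid receptor waits in the cytoplasm in a complex with the HSP90 chaperone, moves to the nucleus when it binds cortisol or hydrocortisone, and binds DNA as a dimer at a palindromic glucocorticoid response element. It can also reach DNA through other factors such as AP-1. Among its best known targets are genes that limit inflammation and that restrain the receptor itself, and in mammary epithelium glucocorticoids are known to favour cell survival and tight cell contacts.

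The element was searched as GNACA, any 3 bases, TGTNC, a pattern that reads the same on both strands. Of the 184 regions, 12 held it somewhere (6.52%, 95% Wilson interval 3.77 to 11.1%), against 1.27% of all merged regions. Within 100 bp of the summit, where the window has the same length in every region, 9 regions held it (4.89%, interval 2.59 to 9.03%), against 0.613% of all regions. Intervals here and below cover counting error only. The 7 target genes were picked because they are known targets of the receptor, so the shares are given as a description. All 12 stretches are shown with their hg38 coordinates because they mark where the receptor's own motif lies in open chromatin of these cells. They are written along the plus strand with the element in capitals, and the second TSC22D3 stretch is cut to 29 bases because it overlaps an annotated UTR.
FKBP5, chr6:35602059-35602119: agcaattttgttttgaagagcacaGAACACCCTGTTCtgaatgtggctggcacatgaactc
FKBP5, chr6:35687734-35687794: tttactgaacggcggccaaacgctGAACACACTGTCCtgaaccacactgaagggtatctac
FKBP5, chr6:35728090-35728150: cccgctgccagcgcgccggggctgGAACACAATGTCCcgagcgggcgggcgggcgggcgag
FKBP5, chr6:35731995-35732055: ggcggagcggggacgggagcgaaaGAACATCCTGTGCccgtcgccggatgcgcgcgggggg
PER1, chr17:8154437-8154497: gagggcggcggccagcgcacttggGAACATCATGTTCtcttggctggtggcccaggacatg
TSC22D3, chrX:107674185-107674245: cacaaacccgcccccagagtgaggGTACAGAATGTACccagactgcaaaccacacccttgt
TSC22D3, chrX:107716079-107716107: agagttccGGACAGTTTGTCCccagatcc
ZBTB16, chr11:114160181-114160241: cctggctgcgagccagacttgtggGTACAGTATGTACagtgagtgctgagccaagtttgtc
ZBTB16, chr11:114162993-114163053: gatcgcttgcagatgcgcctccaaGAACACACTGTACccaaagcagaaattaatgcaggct
ZBTB16, chr11:114164094-114164154: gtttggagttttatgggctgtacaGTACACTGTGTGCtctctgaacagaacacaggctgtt
ZBTB16, chr11:114179481-114179541: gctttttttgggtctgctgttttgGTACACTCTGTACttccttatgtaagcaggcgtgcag
KLF9, chr9:70420102-70420162: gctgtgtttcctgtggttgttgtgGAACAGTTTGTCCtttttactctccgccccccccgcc

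FKBP5 and ZBTB16 held 4 of these elements each, TSC22D3 held 2, and PER1 and KLF9 held 1 each. NR3C1, DUSP1 and SGK1 held none in their regions, which says only that these letters are not in these windows. The elements lay from 21 to 92 bp from the summit in the 9 windows, on either side of it. At FKBP5, 2 elements lay about the upstream TSS, 39205 and 43110 bp ahead of the canonical one, 1 in an intron 86826 bp into the gene, and the last 1151 bp into the gene, in the region over the canonical TSS. The 4 of ZBTB16 lay in introns between 100500 and 119800 bp from its canonical TSS. The PER1 element, GAACATCATGTTC, lay 2063 bp upstream of the canonical TSS, within an intron of a longer transcript. The TSC22D3 element within 100 bp of a summit lay 101572 bp beyond the canonical TSS, past the end of the gene. The nearest protein-coding TSS to its region was that of PRPS1.

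Most regions with an element were strongly open, and their signal stayed within 1.5-fold of solvent where a ratio could be formed. Of the 9 regions with an element near the summit, 8 had a peak in all 4 lists, each with a solvent AUC of at least 1000, and their ratios at 72 h ran from -0.36 to 0.15. The FKBP5 region over the upstream TSS had an AUC of 16328, 18446, 17536 and 17238 in the solvent, 6, 24 and 72 h lists, which is a ratio of -0.27, -0.28 and -0.17. The KLF9 region had 14056, 17110, 16670 and 16206 in the same order, with ratios of -0.16, -0.13 and -0.04. Both were slightly below solvent at every time once scaled, and both were above it as deposited. The first intronic ZBTB16 region had 4481, 5947, 5718 and 5906, and its ratio of 0.15 at 72 h was the highest of the 8. The TSC22D3 region beyond the gene had 3535, 4298, 3681 and 3275 and the lowest, -0.36. The ninth region, in a ZBTB16 intron 104392 bp from the canonical TSS, had no peak in solvent and an AUC of 507.1 at 6 h, 557.2 at 24 h and 959.1 at 72 h. It was the only region with an element near its summit that was gained. The one other region that stood apart was over the start of the short TSC22D3 transcripts, where the element lay 1067 bp from the summit. Its AUC was 1425, 2735, 2692 and 2452, with ratios of 0.50, 0.54 and 0.54, just under the 1.5-fold limit of 0.585.

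**Figure D1:**
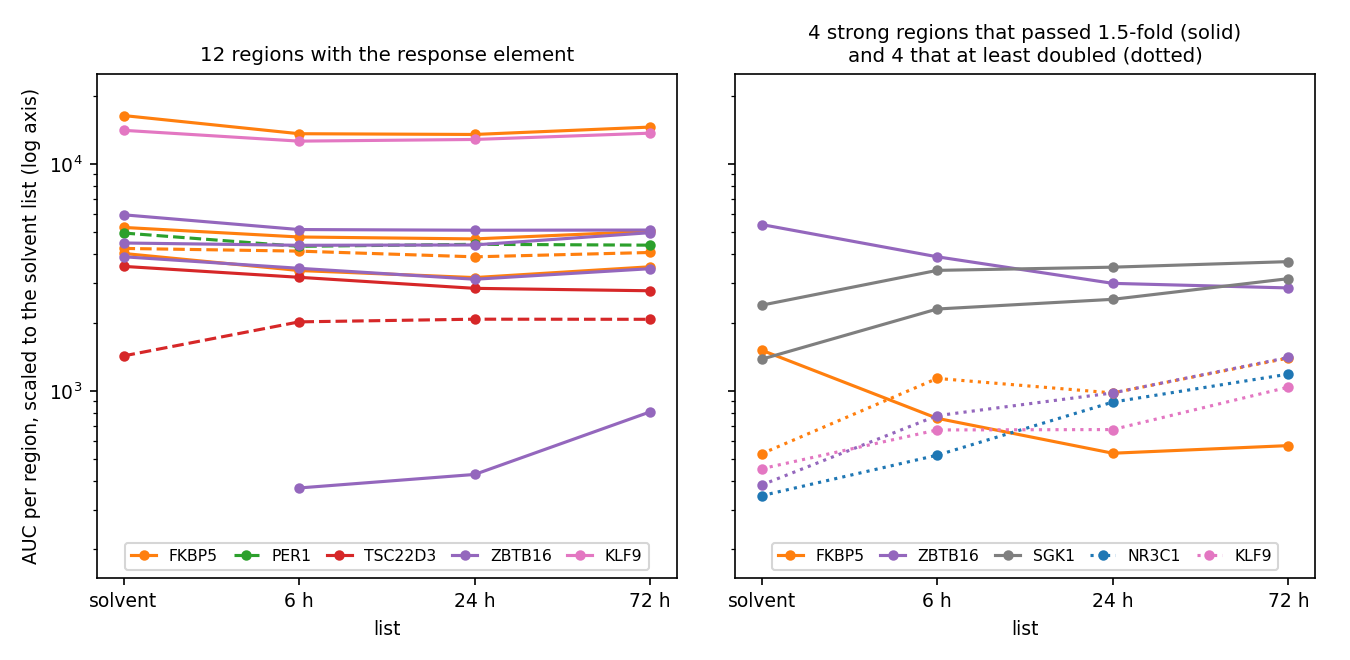
AUC per region divided by each list's scaling (log axis) in the solvent, 6, 24 and 72 h lists. On the left are the 12 regions with a response element, with solid lines where it lies within 100 bp of the summit and dashed lines where it lies farther off; 1 ZBTB16 line starts at 6 h because it has no solvent peak. On the right are the 4 regions with a solvent AUC of at least 1000 that passed 1.5-fold at any time (solid) and the highest-ratio regions of NR3C1, FKBP5, ZBTB16 and KLF9 (dotted). The lines on the left run nearly level, apart from TSC22D3 at 1425 in solvent and the gained ZBTB16 region.

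Summed over all its regions, no member reached 1.5-fold in either direction at any time. When peaks with an AUC under 400 were left out, SGK1 passed that limit at 72 h (0.63). The direction of the sums rests on the scaling, since as deposited all 8 sums were above solvent at every time, by 0.12 to 0.79 at 72 h, and SGK1 then passed at all 3 times (0.76, 0.75 and 0.79). At 6 h 4.24% of the 18784 protein-coding genes with a solvent signal were higher by that much, at 24 h 10.2% and at 72 h 11.3%, whereas 0.0106%, 0.0266% and 0.160% were lower. The members' median ratios at the 3 times were -0.04, -0.07 and -0.02, beside 0.05, 0.10 and 0.11 for all protein-coding genes. SGK1 was the highest at each time and the order of the rest changed. At 72 h it read SGK1 at 0.55, NR3C1 at 0.28, ZBTB16 at 0.15, KLF9 at 0.00, FKBP5 at -0.04, DUSP1 at -0.10, TSC22D3 at -0.11 and PER1 at -0.13. With 1 list per condition there is no spread to set against the steps between neighbours in that order.

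**Figure D2:**
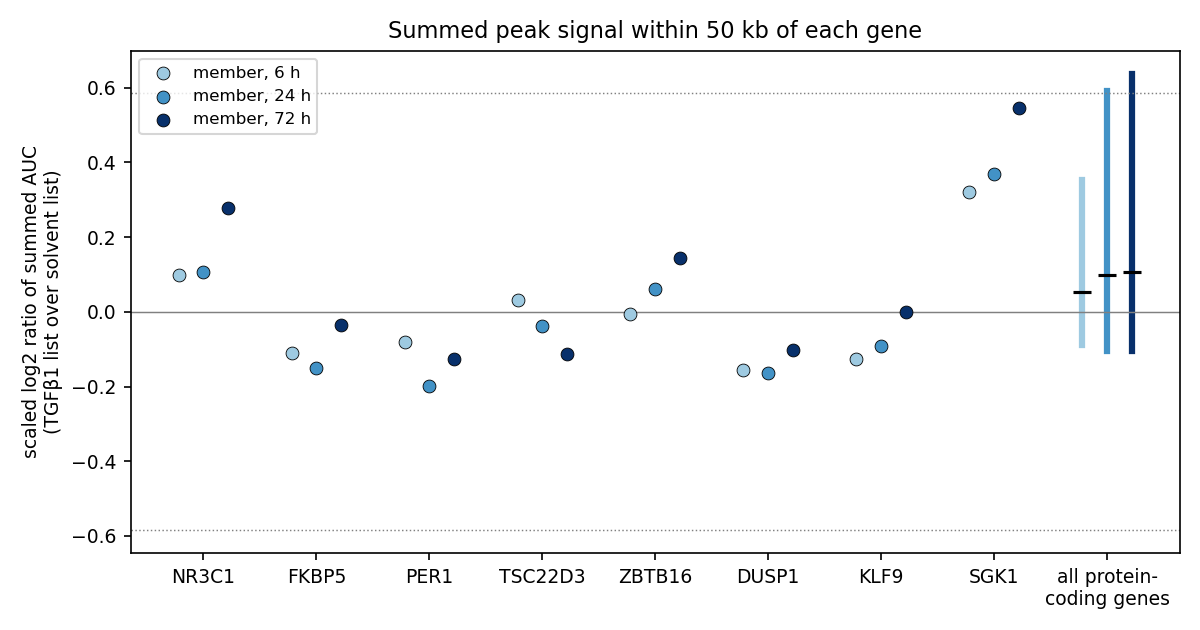
Scaled log2 ratio of the AUC summed within each gene and 50 kb on either side (vertical axis), for the 8 genes and, at the right, all protein-coding genes as a bar from the 10th to the 90th percentile with the median as a dash, at 6, 24 and 72 h (light to dark). Dotted lines mark 1.5-fold. SGK1, at 0.55 at 72 h, lies highest, and no gene crosses a dotted line.

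Over the 184 regions, 142 had a peak in the solvent list and 171, 174 and 170 in the 6, 24 and 72 h lists. A peak in every list was found at 140 of them (76.1%, against 62.6% of all merged regions), and 20 (10.9%, against 14.3%) had one in the 3 TGFβ1 lists alone. Gained regions numbered 29 at 6 h (15.8%, interval 11.2 to 21.7%), 33 at 24 h (17.9%, interval 13.1 to 24.1%) and 30 at 72 h (16.3%, interval 11.7 to 22.3%). Over all merged regions the shares were 19.3%, 27.6% and 27.0%, above the members' interval at 24 and 72 h but not at 6 h. Regions within 3 kb of a TSS were more common at these genes (86 of 184) than overall (43524 of 126658). Among regions farther than 3 kb from any TSS the difference was still present, with 19.4% of members gained at 72 h against 32.6%, whereas within 3 kb it was 12.8% against 16.4%, inside the interval. Most gained regions were weak, with a median AUC of 283.7 at 6 h and 344.1 at 72 h where the caller's limit was 200. Losses were few at 0, 1 and 2 of the 142 solvent regions, against 0.714%, 1.86% and 3.44% overall. The balance of gains and losses rests on the length of the lists, which was greater under TGFβ1. With lists cut to equal length, 7, 6 and 10 member regions were gained and 4, 14 and 12 lost, so losses outnumbered gains at 24 and 72 h. Matching peaks by 50% reciprocal overlap gave 14, 10 and 12 losses but 40, 44 and 42 gains, so gains outnumbered losses under that setting. The lost regions had solvent AUCs of 319.9 at PER1 and 370.1 at ZBTB16, near that limit.

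Among regions with a peak in both lists, 13 of 142 were higher by 1.5-fold at 6 h (9.15%, against 11.7% of all), 20 of 141 at 24 h (14.2%, against 20.3%) and 24 of 140 at 72 h (17.1%, against 22.9%). Lower regions numbered 3 (2.11%, against 1.40%), 10 (7.09%, against 3.22%) and 8 (5.71%, against 3.90%). The overall share lay outside the members' interval only for the lower regions at 24 h (3.90 to 12.6%). No region was higher at one time and lower at another, 12 were higher at all 3 times and 2 lower at all 3. Shares over all merged regions were not computed for calls across times, so those are a description only. The counts of higher and lower regions rest on the scaling and on weak regions. Without scaling 40 regions were higher and 0 lower at 6 h, and among the 74 regions with a solvent AUC of at least 1000 only 2 were higher and 2 lower at 72 h, against 6.02% and 3.18% of all such regions.

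**Figure D3:**
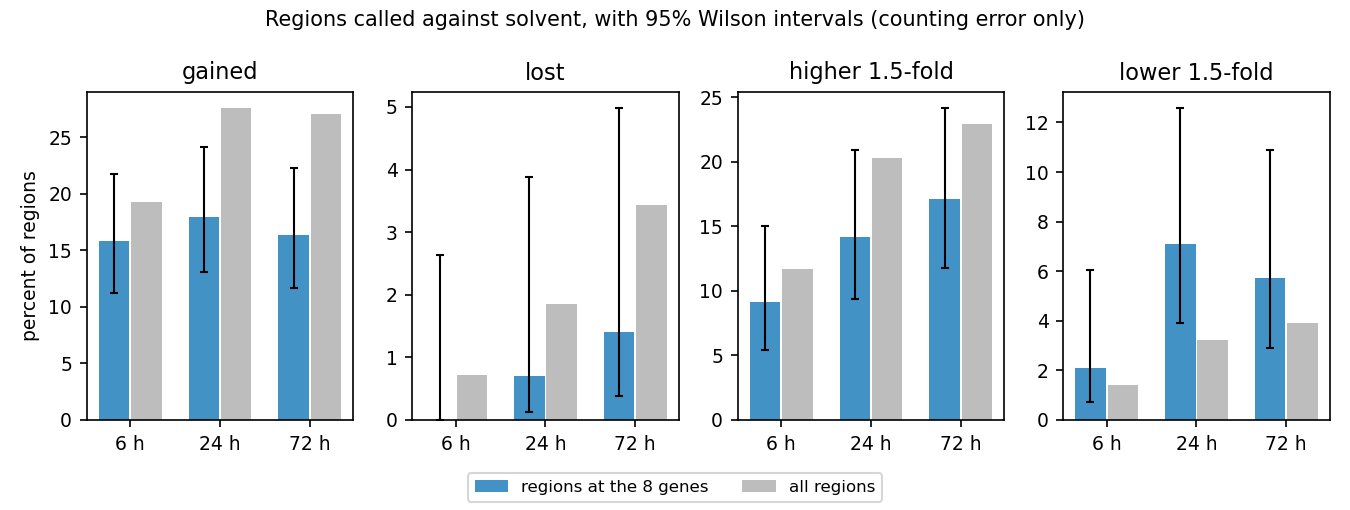
Percent of regions gained, lost, higher by 1.5-fold and lower by 1.5-fold against solvent at 6, 24 and 72 h, for the regions at the 8 genes (blue, with 95% Wilson intervals that cover counting error only) and for all merged regions (grey). The vertical scale differs between panels. The gained share at 72 h is 16.3% at these genes and 27.0% overall.

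NR3C1 encodes the receptor itself. Its 35 regions had a summed AUC of 34547 in the solvent list and 50203, 48409 and 49679 in the 6, 24 and 72 h lists, or ratios of 0.10, 0.11 and 0.28. The region over the canonical TSS, chr5:143402488-143405903, holds 9 of the gene's 16 annotated start sites and had the largest solvent AUC. It read 11577, 14092, 12629 and 11938, so its ratio was below 0 at every time (-0.16, -0.25 and -0.20). No region lay over the 4 start sites of the longest transcripts near position 143435512, in any list. The signal that made the sum higher lay away from these promoters. Of its 24 regions with a solvent peak, 9 were higher at 72 h, where 22.9% of all shared regions were. Another 7 were gained (20.0% of its regions, against 27.0% of all). An intronic region 26291 bp into the gene, chr5:143376766-143377518, had the highest ratio, 1.78, with an AUC of 345.1, 707.1, 1161 and 1406. A region 67771 bp upstream, chr5:143471043-143471602, had the largest AUC of those gained, and read 0, 359.7, 958.1 and 1799. Both were higher in each later list than in the one before. The lowest ratio at 72 h, -0.54, was that of a small region 1540 bp into the gene at 537.7, 646.2, 384.5 and 439.1, and no NR3C1 region was lower by 1.5-fold at 72 h. Near the summit, 19 of the 35 regions held an AP-1 site. Over all merged regions the share was 40.5%, and over those farther than 3 kb from any TSS 47.3%. The window also reaches ARHGAP26, the one other protein-coding gene there.

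**Figure D4:**
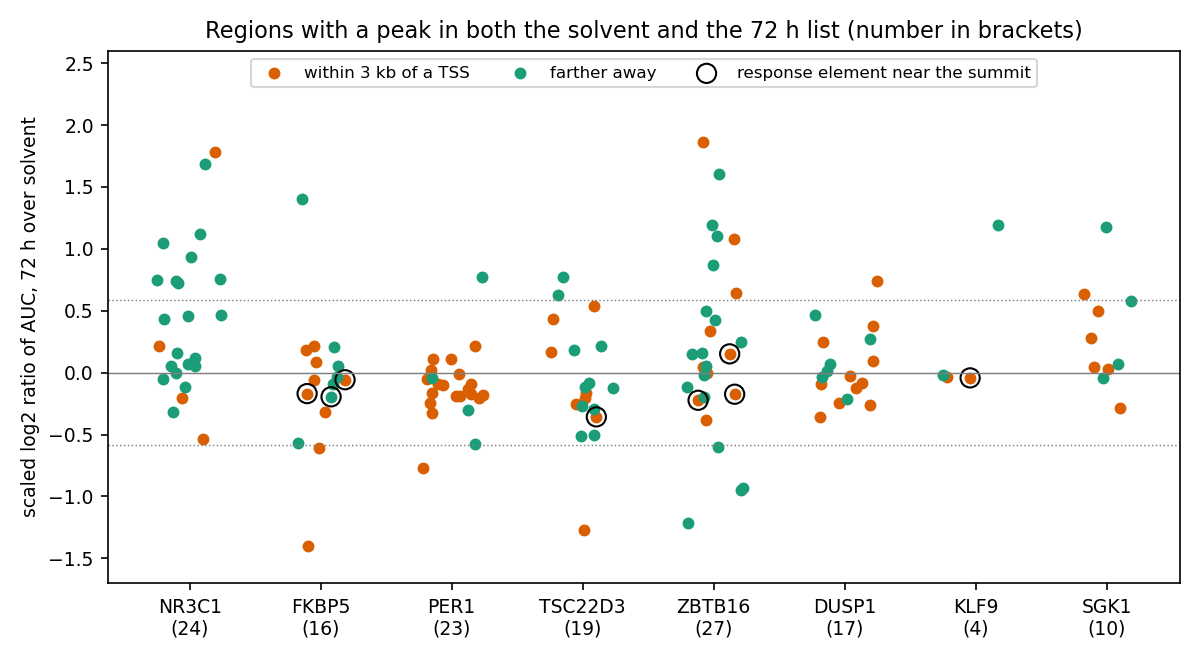
Scaled log2 ratio of AUC, 72 h over solvent, for each region with a peak in both lists (1 point each), by gene, within 3 kb of a TSS (orange) or farther away (green). Black rings mark a response element within 100 bp of the summit and dotted lines mark 1.5-fold. The 8 ringed regions lie between -0.36 and 0.15, while NR3C1 and ZBTB16 hold most of the points above the upper line.

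FKBP5 encodes an HSP90 co-chaperone that lowers the receptor's affinity for its ligand and is induced by it, a short negative feedback loop. Summed AUC was 38627, 48606, 45303 and 44695, with ratios of -0.11, -0.15 and -0.04. For 14 of its 24 regions FKBP5 was the nearest protein-coding TSS. For its regions of lowest and highest ratio at 72 h, given below, TULP1 was the nearest. The region over its canonical TSS was level, at 4241, 5605, 5068 and 4830 (-0.04, -0.12 and -0.06). Against that, a region past the gene's 3′ end, chr6:35567702-35569458, had the lowest ratios of any member region with a solvent AUC of at least 1000. It read 1511, 1028, 691.0 and 680.8, lower than solvent in each TGFβ1 list even before scaling, with ratios of -0.997, -1.51 and -1.40. An intronic region 92177 bp into the gene, chr6:35596460-35597451, differed in the other direction, at 528.2, 1541, 1274 and 1655 (1.10, 0.89 and 1.40). It lay 3845 bp from the intronic region with a response element, which read 4030, 4604, 4106 and 4178 (-0.25, -0.35 and -0.20). FKBP5 gained 7 of its 24 regions at 72 h (29.2%, near the 27.0% of all merged regions), the strongest of them at 0, 283.7, 427.9 and 486.8.

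PER1 encodes a repressor of the circadian clock and is an acute target of the receptor. Its window is crowded, with 7 other protein-coding genes, among them VAMP2, AURKB and HES7, and for 5 of its 25 regions PER1 was the nearest protein-coding TSS. Summed AUC was 56180, 72117, 63736 and 61090, and the ratios, -0.08, -0.20 and -0.13, were below those of 97.6% of protein-coding genes at 24 h. The canonical promoter had 4716, 5679, 5430 and 5542 (-0.17, -0.18 and -0.01). The region with the response element, chr17:8153222-8155020, had 4959, 5884, 5754 and 5202 (-0.20, -0.17 and -0.18). So both were within 0.2 of solvent throughout. The lowest single value at PER1 belonged to a small region in HES7 at 24 h (-1.04), whose AUC was 864.4, 1092, 545.8 and 820.1 and whose ratio was -0.11 at 6 h and -0.32 at 72 h.

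TSC22D3 encodes GILZ, a leucine zipper protein that binds and restrains AP-1 and NF-κB. Its summed AUC was 25544, 35437, 32349 and 28055, with ratios of 0.03, -0.04 and -0.11. For 15 of its 22 regions TSC22D3 was the nearest protein-coding TSS. Its start sites differed among themselves. The canonical start, of the long transcript, had 1928, 2463, 2433 and 1921 (-0.09, -0.04 and -0.25), while the region over the 4 starts of the short transcripts, chrX:107715542-107717475, had the ratios near 0.5 given above. A second upstream group of 6 starts had 1006, 1391, 1466 and 1340 (0.03, 0.16 and 0.17). Of the 3 start regions, the short transcripts' one was thus the highest relative to solvent at each time. At 679 bp from it, the small intronic region chrX:107718155-107718600 read 677.4, 737.3, 566.6 and 333.9 and had the lowest ratio at the gene, -1.27 at 72 h.

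ZBTB16 encodes PLZF, a zinc finger repressor that is strongly induced by glucocorticoids in many tissues. At 72 h 8 of its 39 regions were gained (20.5%, against 27.0% of all merged regions). Among its regions with a peak in both lists, 7 were higher by 1.5-fold and 4 lower. Of all such regions, 22.9% were higher and 3.90% lower. Of the 8 gained, 4 lay within the neighbouring gene NNMT, and 3 had ZBTB16 as the nearest protein-coding TSS. Summed AUC was 50626, 68460, 68737 and 66414, with ratios of -0.01, 0.06 and 0.15. The canonical promoter was level at 5553, 7780, 7322 and 6578 (0.05, 0.02 and 0.00). Inside the gene, the intronic region chr11:114154243-114155540, which lay 94990 bp from the canonical TSS, had an AUC of 5404, 5293, 3872 and 3371. Its ratios were -0.47, -0.86 and -0.93, and it was below solvent as deposited too in each TGFβ1 list, slightly so at 6 h. Further into the gene, chr11:114177410-114177907 read 384.7, 1056, 1274 and 1665 and had the highest ratio of all 8 genes at 72 h, 1.87. It lay 761 bp before a region with a response element, chr11:114178669-114180954, which read 5965, 6977, 6638 and 6064 (-0.22, -0.23 and -0.22). Of the 4 ZBTB16 regions with an element near the summit, the 3 with a solvent peak stayed within 0.33 of solvent and the other was gained. The gained region with the largest AUC lay 41823 bp upstream, nearer the TSS of HTR3A, and read 0, 416.6, 1385 and 1489.

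**Figure D5:**
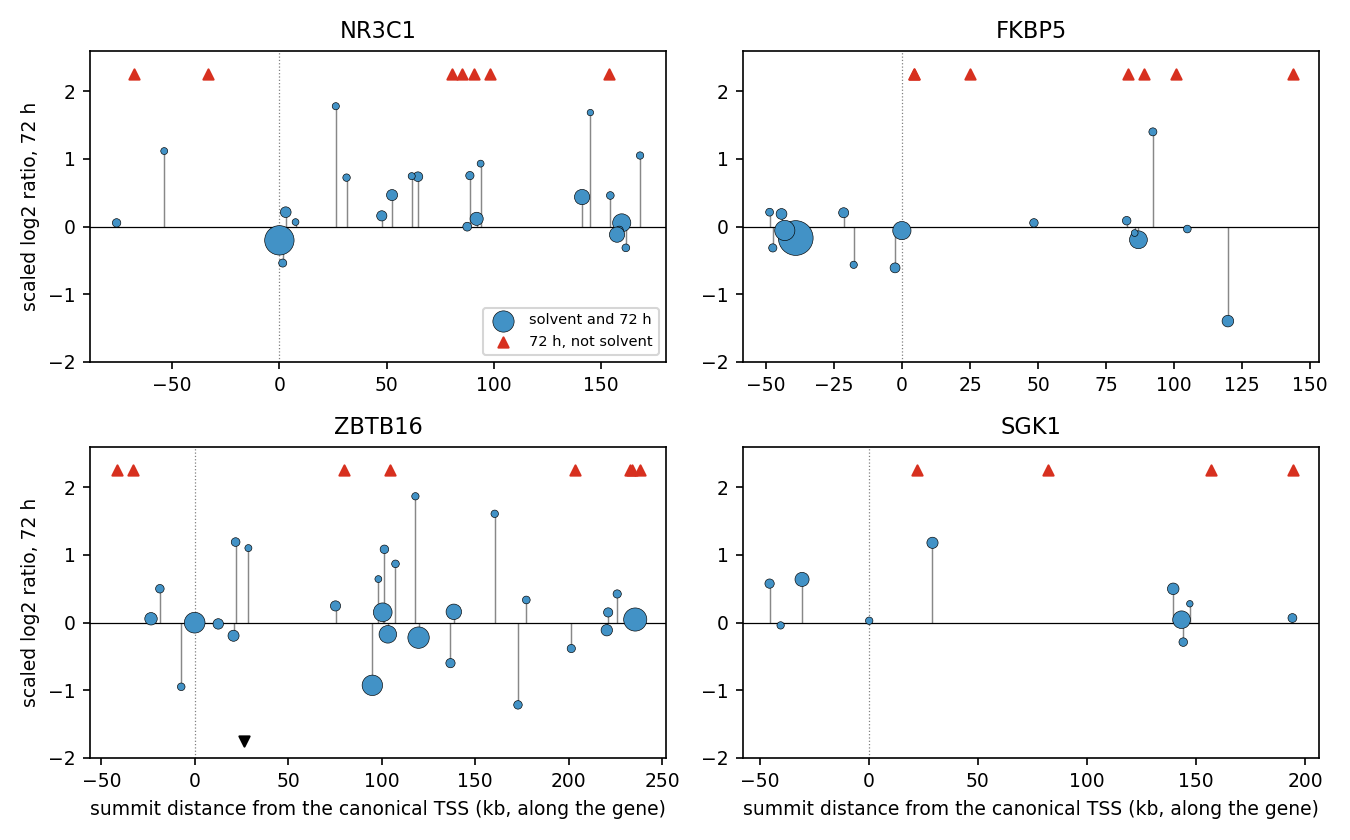
Distance of each region's summit from the canonical TSS (horizontal axis, kb, positive into the gene) against its scaled log2 ratio at 72 h (vertical axis) for NR3C1, FKBP5, ZBTB16 and SGK1. Circle area grows with the solvent AUC, red triangles near the top mark regions with a peak at 72 h and none in solvent, and the black triangle marks the lost ZBTB16 region; close triangles overlap. The large circles over start sites sit near 0, with the NR3C1 promoter at -0.20, and most large ratios belong to small circles.

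DUSP1 encodes a phosphatase that switches off the p38 and JNK kinases and carries much of the anti-inflammatory action of glucocorticoids. It lies in a stretch with no other protein-coding gene and had the largest summed AUC of the 8, at 71790, 87590, 83451 and 79326. The ratios were -0.16, -0.16 and -0.10, and 97.8% of protein-coding genes had a higher one at 6 h. Its promoter region, chr5:172768245-172774054, had 18335, 20961, 20459 and 18410 (-0.25, -0.22 and -0.24), the largest solvent AUC of all member regions. The broad region just downstream had 15093, 16569, 14544 and 13991 (-0.31, -0.43 and -0.36). No DUSP1 region was lower by 1.5-fold at any time. There was 1 small upstream region, at 217.5, 359.5, 447.8 and 431.1, that was higher at 24 and 72 h (0.66 and 0.74).

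KLF9 encodes a Krüppel-like repressor that is a direct target of the receptor in many tissues. It had 4 regions, all with a peak in every list, and a summed AUC of 22417, 27880, 27388 and 26600 (-0.13, -0.09 and 0.00). None covered the annotated TSS. The nearest region ended 101 bp short of it inside the gene, at 7265, 9187, 8960 and 8412 (-0.10, -0.08 and -0.04). The strongest region lay 5416 bp upstream and held both a response element and an AP-1 site, with the values given above. The region farthest upstream, 24084 bp from the TSS at chr9:70438479-70438911, read 453.7, 913.6, 878.6 and 1232, with ratios of 0.57, 0.57 and 1.19, and was the only KLF9 region to pass 1.5-fold.

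SGK1 encodes a serum- and glucocorticoid-inducible kinase that controls ion channels and cell survival. It stood highest of the 8, with a summed AUC of 12423, 21073, 20892 and 21525, the lowest solvent sum and ratios of 0.32, 0.37 and 0.55. At 72 h 12.5% of protein-coding genes had a higher ratio, so the value was well inside the range of all genes. Its main promoter was not what differed. The region over 6 start sites of the shorter transcripts, chr6:134174411-134175979, read 3941, 5443, 5225 and 4816 and was level (0.02, 0.03 and 0.04). The weak canonical start of the longest transcript read 397.9, 510.3, 705.0 and 481.1 (-0.08, 0.45 and 0.03), near solvent at 6 and 72 h and higher at 24 h, below 1.5-fold. A small region beside the main promoter had the lowest ratio at the gene at 72 h, at 658.1, 750.3, 665.5 and 639.2 (-0.25, -0.36 and -0.29). At 24 h the lowest was a weak upstream region, chr6:134358348-134358696, at 387.4, 555.5, 319.0 and 446.4, which was lower by 1.5-fold at that time alone (0.08, -0.66 and -0.04).

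The regions that differed at SGK1 lay between and beyond its start sites. An intronic region 29196 bp into the gene, chr6:134288320-134289478, read 1378, 3116, 3293 and 3703 and had ratios of 0.74, 0.88 and 1.18. The region chr6:134347892-134349014, which lay 30552 bp upstream, read 2384, 4611, 4563 and 4402 (0.51, 0.56 and 0.64). These were the 2 member regions with a solvent AUC of at least 1000 that were higher by 1.5-fold at any time, as the FKBP5 region past the 3′ end and the ZBTB16 intronic region at 5404 were the 2 that were lower. The ZBTB16 region and the upstream SGK1 region were singled out after their values were seen. Of the 14 SGK1 regions 4 were gained at 72 h (28.6%, near the 27.0% of all merged regions), of which an intronic one at chr6:134295975-134296459 was the strongest at 0, 242.7, 461.8 and 695.4. No protein-coding gene other than SGK1 lies in this window.

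Other sequence motifs were searched around the summits as well. AP-1, a dimer of JUN and FOS proteins, was searched as TGANTCA, which reads the same on both strands. It lay within 100 bp of the summit in 65 of the 184 regions (35.3%, against 40.5% of all merged regions), in 7 of the 13 that were higher at 6 h, 11 of the 20 at 24 h and 16 of the 24 at 72 h, and in 2 of the 8 that were lower at 72 h. Over all merged regions it was in 54.4%, 54.8% and 57.5% of those higher at the 3 times and 16.5% of those lower at 72 h. No member region that was higher or lower at any time held a response element near its summit. Only 0.613% of all merged regions held one there, so its absence from so few regions says little. The 8 bases TGACGTCA (a cAMP response element) were near the summit of 1 member region (0.543%, against 0.520% of all), CACGTG (an E-box) in 7 (3.80%, against 3.51%) and GTCTAGAC (a palindromic SMAD site) in 0, where 0.295% of all regions held it. The half-site TGTTCT, or AGAACA on the other strand, which overlaps some full response elements, was in 45 (24.5%, against 15.2%). For the 5 genes whose highest region at least doubled at 72 h, the 61 bases around the AP-1 site nearest the summit are shown, with AP-1 in capitals, to set beside the response elements above. The SGK1 region held no AP-1 site near its summit, so the bases around its summit stand there and carry no capitals.
NR3C1, chr5:143377269-143377329: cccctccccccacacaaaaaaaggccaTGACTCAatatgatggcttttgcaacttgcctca
FKBP5, chr6:35596735-35596795: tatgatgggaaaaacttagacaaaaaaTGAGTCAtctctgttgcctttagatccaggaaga
ZBTB16, chr11:114177746-114177806: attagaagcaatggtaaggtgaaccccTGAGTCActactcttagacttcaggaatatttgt
KLF9, chr9:70438783-70438843: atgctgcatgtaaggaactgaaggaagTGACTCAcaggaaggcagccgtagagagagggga
SGK1, chr6:134288886-134288946: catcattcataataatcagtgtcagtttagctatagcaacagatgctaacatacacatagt

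Most other genes of the pathway stayed within 1.5-fold, as did most protein-coding genes, by sums that can include regions of neighbouring genes. Of all protein-coding genes, 4.24%, 10.2% and 11.3% were higher at 6, 24 and 72 h, and 0.160% or fewer were lower. Beside these shares, counts in lists this short say little. Of 13 genes of the receptor machinery (the chaperones HSP90AA1, HSP90AB1, HSPA8, STIP1, PTGES3 and FKBP4, the coregulators NCOA1, NCOA2, NCOA3 and NCOR1, the mineralocorticoid receptor NR3C2, and the enzymes HSD11B1 and HSD11B2), none was higher or lower by 1.5-fold in summed AUC at 6 or 24 h. At 72 h 1 was higher, HSD11B1, which regenerates cortisol from cortisone. Its sums were 55646, 87683, 97995 and 107269, with ratios of 0.21, 0.44 and 0.70. HSD11B2, which inactivates cortisol, was the lowest of the list at 72 h, at 14478, 20152, 18373 and 15077 and a ratio of -0.19. The list's median was 0.005, -0.04 and 0.02. Of 22 further targets, KLF15, a metabolic regulator, was higher at 24 and 72 h, at 2986, 5669, 6869 and 6075 (0.48, 0.82 and 0.78), and none was lower. ZFP36, which encodes an mRNA-destabilising protein, had the lowest ratio of these at each time (-0.26, -0.28 and -0.21). The list's median was 0.07, 0.06 and 0.07, between the members' and that of all protein-coding genes at 24 and 72 h.

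Across the genome, 776 merged regions held a response element near the summit, and those far from a TSS had a lower median ratio than regions without one. Among regions more than 3 kb from any TSS, the median ratio at 6 h was -0.01 over 355 regions with an element and 0.12 over 48626 without. At 6 h, 5.92% of those with an element were lower by 1.5-fold (interval 3.90 to 8.87%), against 1.52% without, and 2.47% of those open in solvent were lost (interval 1.31 to 4.63%), against 0.800%. At 72 h the lower share was 8.21% (interval 5.74 to 11.6%) against 3.97%, and the median 0.17 against 0.27. Within 3 kb of a TSS the median at 72 h was instead higher with an element, 0.05 against 0.00, 18.8% against 13.4% were higher by 1.5-fold, and the lower share was 6.47% (interval 3.65 to 11.2%) against 3.73%. For the regions beyond 3 kb the median solvent AUC was close, 657.0 with an element and 619.4 without. At the 8 genes, 8 of the 9 regions with an element near the summit lay within 3 kb of a TSS of some transcript. Those of the 9 with a solvent peak each had a solvent AUC of at least 1000. The median within 3 kb over all regions with an element was 966.0. None of these member regions was lower by 1.5-fold or lost, which says little for so few regions beside shares of 6.47% and 8.21%.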

How the data were processed

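MCF10A cells were profiled by ATAC-seq in 8 samples, 2 per condition. Per the submitters' processing notes, the authors used Trimmomatic 0.38, Bowtie2 2.4.5, Picard, SAMtools 1.4.1 and Genrich 0.5 with GRCh38. The study's methods say that peaks were called on both replicates together. The deposited signal value is the AUC of each peak, with a threshold of 200 by the authors and no scaling between lists. The deposited −log10 q at the summit was at least 2.81 in every list, and the −log10 p was not used. The condition of each list was read from its name. A figure legend in the study gives solvent for 72 h, whereas the labels give time 0. No file gives reads, so depth per sample is unknown and intervals cover counting error only.

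Peaks on the 22 autosomes and X were merged at 1 bp and assigned to genes of GENCODE 44. AUCs were summed per region and list, and log2 ratios to solvent were centred on the median of regions within 3 kb of a TSS. Motifs were searched in hg38 within 100 bp of the summit of the strongest peak. The genes, lists and alternatives were chosen with earlier results of these data known. Regions named at each gene were those over the canonical TSS, of largest solvent AUC, of highest and lowest ratio at 72 h among regions with an AUC of at least 400 in solvent or at 72 h, the strongest gained and lost ones, and those with a response element. Of the lists of other genes, 2 genes are not reported here. The calculation was tested on simulated lists with known scaling, gains and losses. Alternatives were lists cut to an equal length, a higher AUC limit (400), pairwise 50% reciprocal overlap, other scalings, AUC per base, other windows around the genes, 2-fold, and other motif searches. Python 3.11.15, numpy 2.4.6, pandas 2.3.3 and matplotlib 3.10.9 were used.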

Additional observations from a re-analysis of the deposited data

How the results depend on the processing

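No paired analysis was possible because each deposited list pools both replicates of a condition, and leaving out a replicate was not possible for the same reason. Depth limits weak regions most, since a region near the caller's limit can enter or leave a list without a change in the cells.

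Values are given for 6, 24 and 72 h in that order, and the cause of a shift was not tested unless the setting itself sets it. Regions gained numbered 29, 33 and 30. They were 15, 19 and 17 within 10 kb of the genes, 13, 15 and 14 within the gene body, 7, 6 and 10 with lists of equal length, and 18 and 20 at 6 and 24 h for regions whose nearest protein-coding TSS was the member's, a restriction added after seeing the data. Regions lost numbered 0, 1 and 2. They were 4, 14 and 12 with lists of equal length, 14, 10 and 12 with 50% reciprocal overlap, 2 and 4 at 24 and 72 h with a minimum AUC of 400, and 0 and 1 at 24 and 72 h within 10 kb, within the gene body, and by nearest TSS. Regions higher by 1.5-fold numbered 13, 20 and 24. They were 3, 7 and 12 at 2-fold, 6, 11 and 14 for AUC per base, 6, 12 and 14 with a minimum AUC of 400, 40 and 38 at 6 and 24 h without scaling, and 1, 1 and 2 among regions with a solvent AUC of at least 1000, also added after seeing the data. Regions lower by 1.5-fold numbered 3, 10 and 8. They were 0, 2 and 3 at 2-fold, 6, 3 and 4 for AUC per base, 1, 5 and 5 within the gene body, 0, 2 and 5 without scaling, 1, 2 and 2 with a solvent AUC of at least 1000, 6 at 24 h with lists of equal length, 5 at 72 h with a minimum AUC of 400, 13 at 72 h with scaling on all shared regions and 1 at 6 h by nearest TSS. The median ratio of shared regions, -0.05, -0.05 and 0.00, became 0.39, 0.33 and 0.25 without scaling, and -0.17 and -0.15 at 24 and 72 h with scaling on all shared regions. The share of regions with a response element, 4.89%, became 24.5% for the half-site alone. The remaining 88 of the 152 comparisons with these alternatives stayed within 1.5 times the count, within 0.1 on the log2 scale, or within the interval of the share. For summed AUC per gene, 170 of 216 values moved by 0.1 or less. Without scaling all 24 moved further and every sum was above solvent. SGK1 at 72 h ran from 0.40 to 0.79.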
